A study of Mus musculus with 2 samples.

Results

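Cytochrome P450 genes of mouse epidermis were examined as a family. They were chosen by name: every probe of the array whose gene symbol begins with Cyp and a digit, apart from a pair of genes not analysed here. That gave 92 probes for 67 genes, out of 25697 probes for 17871 genes on the array. The DKO sample was epidermis of C57BL6 mice (age P5, back skin) that were VDR fl/fl and CaSR fl/fl and carried a K14 driven Cre. Cre under the keratin 14 promoter removes the vitamin D receptor (VDR) and the calcium-sensing receptor (CaSR) from keratinocytes and leaves them in other cells of the epidermis. The CON sample was epidermis of littermates with the same floxed alleles and no Cre listed, VDR fl/fl and CaSR fl/fl. A protocol line calls the pooled mutant group VDR KO, where title and genotype name both receptors. Dispase was used to lift the epidermis from the dermis. Each sample is RNA of 3 mice combined and hybridised to 1 Illumina array, so the differences below carry no replicate error and no test between DKO and CON could be run, and having 1 array each is what limits their precision.

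Cytochrome P450 enzymes are heme proteins that insert oxygen into lipids, hormones and foreign compounds. Most sit in the endoplasmic reticulum and take electrons from P450 oxidoreductase, and a few sit in mitochondria and use ferredoxin. In skin they are known for activating and inactivating vitamin D, for clearing retinoic acid, for making oxygenated fatty acids of the barrier, and for the response to pollutants. The series addresses how VDR and CaSR signalling bears on epidermal differentiation, and VDR is known to control transcription of the P450 gene that breaks down its own ligand.

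The DKO array had 10441 detected probes and a median raw signal of 138, and the CON array 10760 and 140.5. A probe is called detected at a detection p-value under 0.01, which compares it with the negative controls of its own array and not with the other group. Vdr, the deleted receptor, was detected on both arrays, and its brightest probe read 10.06 (log2 of the normalized signal) in DKO and 10.17 in CON. Its other probes differed by -0.24 and -0.82 (DKO minus CON, log2). The Casr probe was detected on neither array. A probe outside the deleted exons checks nothing, and the labels and tables do not say where these probes lie. Of the keratinocyte markers, 7 of 7 on the array were detected, with summed normalized signals of 91350 in DKO and 88980 in CON. Of the hepatocyte markers, Alb, Fgb, Ttr and Serpina1a were detected on neither array. Apoa1 was detected on both, with raw signals of 151.0 in DKO and 157.4 in CON. Among dermal fibroblast markers Dcn was detected and Col1a1, Col1a2, Col3a1, Lum and Pdgfra were not, and none of the 5 endothelial or 5 adipocyte markers was detected. The pools differed in Y-linked transcripts: the brightest Ddx3y probe read 10.31 (log2) in DKO and 6.89 in CON, and the part of sex in any value below was not tested.

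Most P450 genes were not measurable in this tissue. By the probe with the highest mean signal, 14 of 67 genes (20.9%) were detected on either array, where 47.4% of all genes on the array were. Of the 92 probes 17 (18.5%) were detected, where 43.7% of all probes were. The 75 probes that were not detected had raw signals between 110 and 149.8 in DKO, with a median of 127.9, and between 115.7 and 149.9 in CON, with a median of 128. Such a signal lies within the negative controls and gives an upper limit, not an absence.

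**Figure D1:**
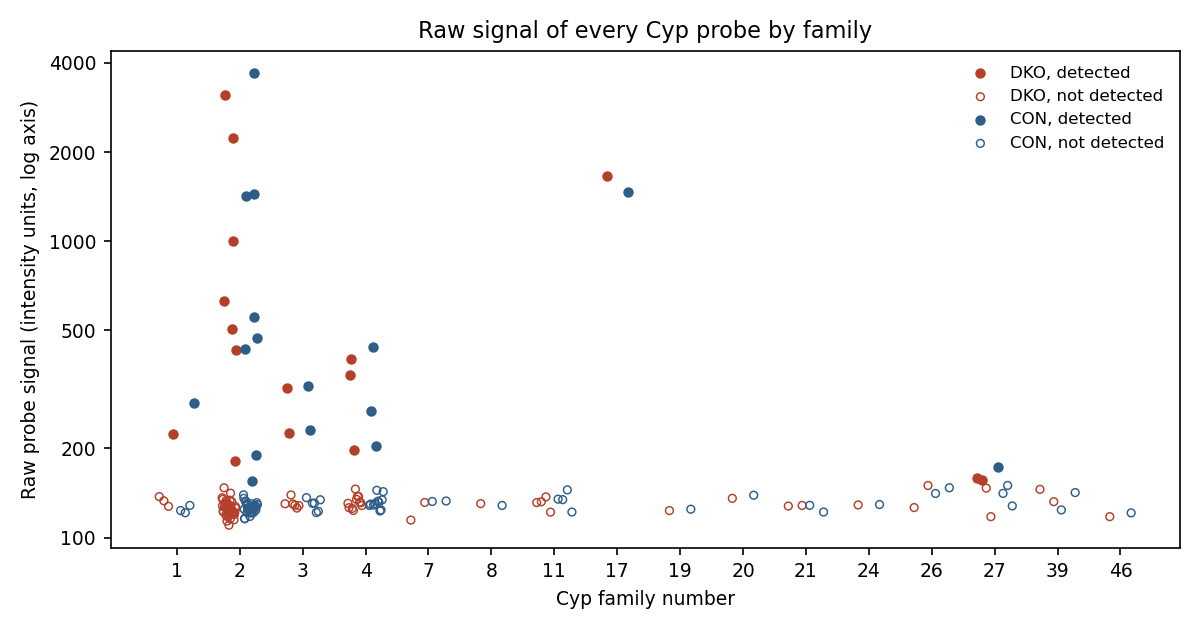
Raw signal (intensity units, log axis) of all 92 Cyp probes by family number, DKO left of CON in each family; filled points were detected on that array and open points were not. Detected probes occur in 6 of 16 families, and open points lie between 110 and 149.9.

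The detected genes came from 6 of 16 families. In family 2, the largest and mostly known for oxidising drugs and arachidonic acid, 7 of 31 genes were detected: Cyp2b10, Cyp2b19, Cyp2d22, Cyp2f2, Cyp2g1, Cyp2j9 and Cyp2s1. None of the 9 genes of subfamily Cyp2c, which are abundant in mouse liver, was detected. In family 4, whose enzymes hydroxylate the ends of fatty acid chains, 3 of 10 genes were detected: Cyp4b1, Cyp4f13 and Cyp4f16. Families 1, 3, 17 and 27 had 1 detected gene each, namely Cyp1b1, Cyp3a13, Cyp17a1 and Cyp27a1. Families 7, 8, 11, 19, 20, 21, 24, 26, 39 and 46 had none. They include Cyp11a1, Cyp11b1, Cyp11b2, Cyp19a1 and Cyp21a1 of steroid hormone synthesis and Cyp7a1, Cyp7b1 and Cyp8b1 of bile acid synthesis.

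The edge of detection was narrow for a few genes. Just inside, the Cyp2d22 probe had a raw signal of 141.1 in DKO and 155.7 in CON and passed on the CON array alone (a detection p-value of 0.0313 in DKO and 0.00376 in CON). Just outside, Cyp26b1, an enzyme that degrades retinoic acid, had raw signals of 149.8 in DKO and 147.2 in CON (a detection p-value of 0.0113 in DKO and 0.0201 in CON). Cyp39a1, an oxysterol hydroxylase, had a probe at 145.4 in DKO and 123.9 in CON (a detection p-value of 0.0213 in DKO and 0.650 in CON), and its other probe ran the other way at 132.1 in DKO and 141.8 in CON.

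The P450 enzymes of vitamin D metabolism were at or near background on both arrays. Cyp24a1, the mitochondrial hydroxylase that inactivates vitamin D and a classical target of VDR, had raw signals of 128.8 in DKO and 129.2 in CON (a detection p-value of 0.341 in DKO and 0.370 in CON). Cyp27b1, which makes the active hormone and is known to be active in keratinocytes, had 117.6 in DKO and 127.8 in CON (a detection p-value of 0.901 in DKO and 0.444 in CON). Cyp2r1, the microsomal enzyme of the preceding activation step, had 127.3 in DKO and 131.1 in CON (a detection p-value of 0.417 in DKO and 0.283 in CON). None of these 3 genes was above background, so no fold is given and a difference in either direction was not detectable.

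Cyp27a1, a mitochondrial sterol hydroxylase that can also act on vitamin D, was the only member of that group with a detected probe, and its probes disagreed. The main probe had raw signals of 158.7 in DKO and 172.7 in CON and differed by -0.22. A further probe had 156.2 in DKO and 140.9 in CON, was above background in DKO only and at least 1.21-fold higher there, and the remaining probe was detected on neither array. That bound is within the spread between probes given below. Among the partners of the pathway, a list that includes the deleted receptor Vdr, 5 of 9 genes on the array were detected. Their median log2 difference was 0.03, with 0 beyond 2-fold. Dhcr7, the reductase that uses up the precursor from which vitamin D is made, differed by 0.65. Trpv6, an epithelial calcium channel, differed by 0.46, with its other probe at 0.21, within that spread. Rxrb differed by -0.18, with its other probe at 0.23, and Vdr is given above. Gc, Lrp2, Rxrg and S100g were not detected.

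Across the 14 detected genes the median log2 difference was 0.03, where the median over all 8472 detected genes was -0.02. Of the 14 genes 9 were higher in DKO by any amount and 5 were lower, against 47.1% higher and 52.6% lower among all detected genes. With median scaling in place of quantile normalization, which moves the median of all detected genes to -0.13, 5 were higher and 9 lower. By the fixed rule of a difference of at least 2-fold, 1 of 14 genes was higher and 0 were lower, where 1.05% of all detected genes were higher and 1.39% lower (89 and 118 genes; 71 and 149 with median scaling). The central 95% of detected genes lay between -0.84 and 0.80, and Cyp2b19, Cyp2b10 and Cyp4b1 lay above it. Between probes for 1 gene the difference varied with a pooled SD of 0.30 (log2, 2047 genes), the one measure of spread these arrays give, and 7 of the 14 Cyp genes differed by more than that, against 40.1% of all detected genes. With signals not above background set to their bound the count was 6 of 14, against 35.6% of all detected genes, since Cyp2d22 then fell within the spread.

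**Figure D2:**
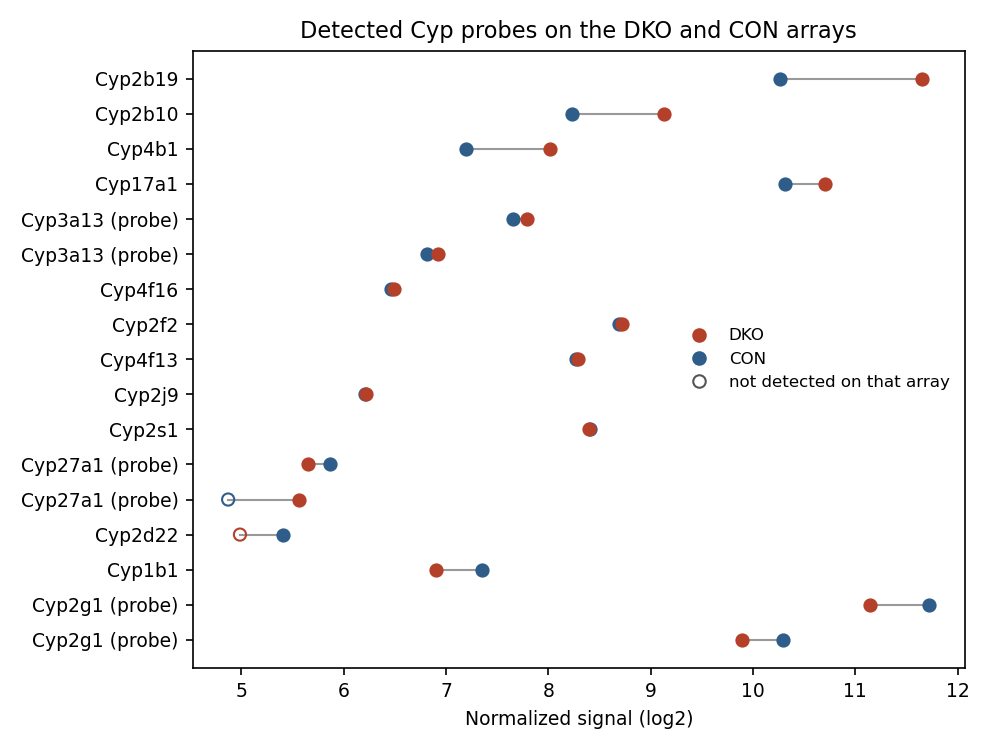
Normalized signal (log2) of the 17 detected Cyp probes in DKO and CON, ordered by the gene's difference; open circles mark an array on which the probe was not detected. Cyp2b19, at 11.65 in DKO and 10.26 in CON, has the widest gap, and both Cyp2g1 probes lie lower in DKO.

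**Figure D3:**
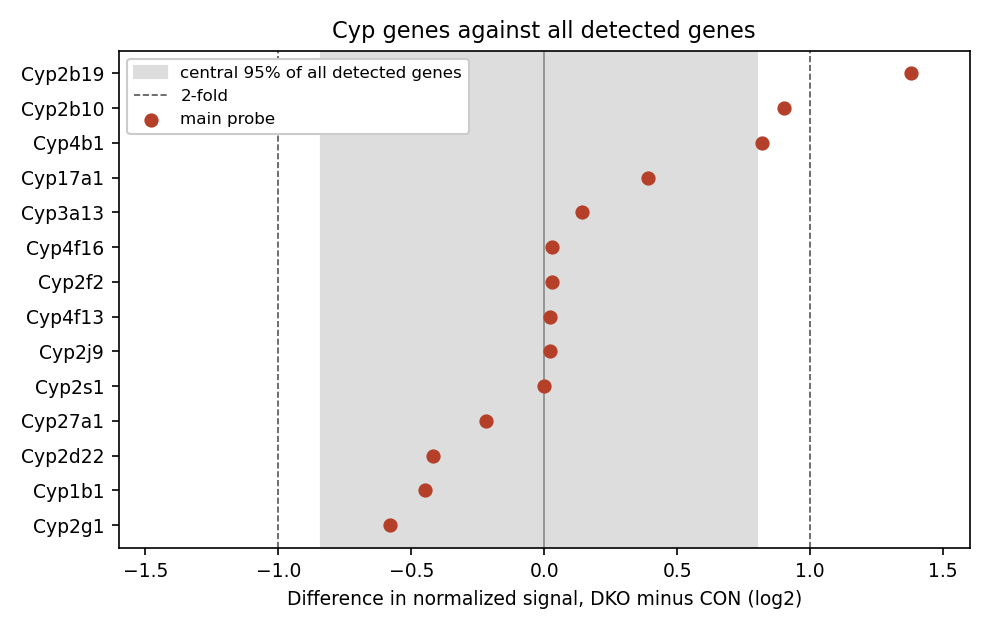
Difference in normalized signal (DKO minus CON, log2) of the main probe of the 14 detected Cyp genes, with the central 95% of all 8472 detected genes shaded and the 2-fold limits dashed. Cyp2b19 alone lies beyond 2-fold, at 1.38, and 5 genes from Cyp2s1 to Cyp4f16 lie within 0.03 of 0; Cyp2d22 is drawn at its measured -0.42, with its DKO signal not above background.

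The clearest differences were in subfamily Cyp2b. Cyp2b19 is a P450 of mouse keratinocytes that makes epoxides of arachidonic acid and is known from the upper living layers of the epidermis. It had a raw signal of 3119.9 in DKO and 1421.3 in CON, and normalized signals of 11.65 (log2) in DKO and 10.26 in CON. The difference of 1.38 is a fold of 2.61, and 0.307% of detected genes had a higher one. It stayed at least 2-fold under all alternatives run, between 1.22 and 1.38, of which only those that change the normalization or background correction could alter it.

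Cyp2b10, in liver the classical gene induced by phenobarbital, was measured by a probe that the array lists as Cyp2b20. That probe had a raw signal of 630.4 in DKO and 432 in CON, and its normalized signal was 1.87-fold higher in DKO (0.90 on the log2 scale), under the 2-fold rule. The array's own Cyp2b10 probe had 147.2 in DKO and 132.7 in CON and was detected on neither array. Of the other genes with a Cyp2b symbol on the array, Cyp2b9 and Cyp2b13 were not detected on either array. Cyp2b genes are close copies of each other, and whether a probe binds transcripts of more than 1 of them was not tested.

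Several Cyp2 genes lie in 1 stretch of the genome. In RefSeq GRCm38.p6, used here for the order of genes, 12 Cyp2 genes lie among the 17 protein-coding genes from Cyp2s1 to Cyp2f2 on mouse chromosome 7, and 10 of them were measured. The gene next to Cyp2b19 on one side is Cyp2b23, which the array lists under the symbol EG243881 and which the naming rule therefore leaves out. It had raw signals of 325.4 in DKO and 192.7 in CON and differed by 1.56 (2.95-fold). The gene next to Cyp2b19 on the other side is Cyp2g1, with no protein-coding gene between, and it was lower in DKO. Cyp2s1 and Cyp2f2, at the ends of the interval, were within 0.03 of 0 (-0.12 and -0.11 with median scaling), and Cyp2b13, Cyp2b9, Cyp2a5 and Cyp2a12 were not detected.

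**Figure D4:**
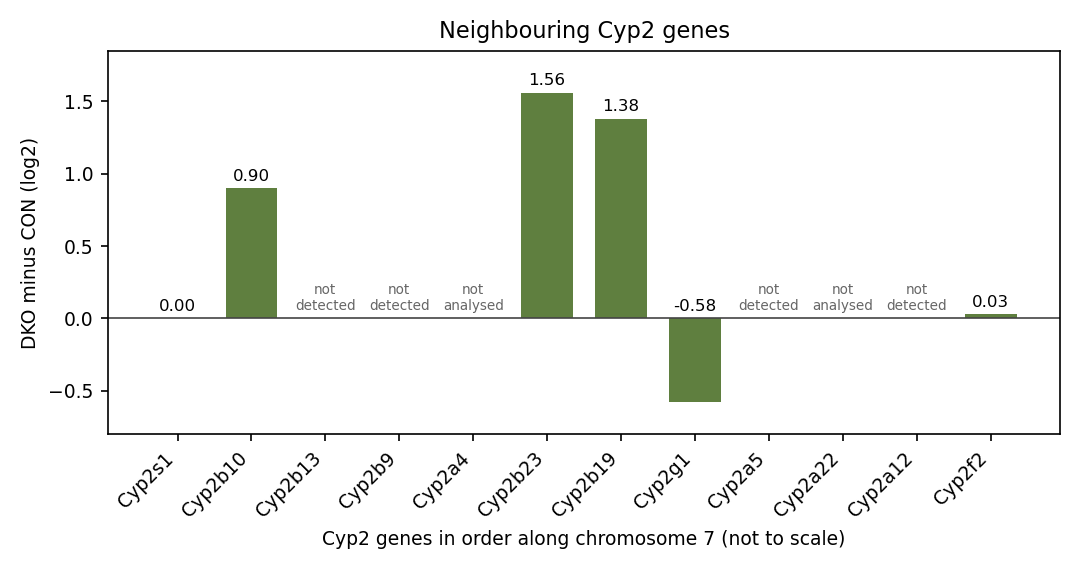
Difference in normalized signal (DKO minus CON, log2) of 12 Cyp2 genes in their order along chromosome 7, spaced evenly. Bars stand for detected genes: Cyp2b10, Cyp2b23 and Cyp2b19 lie at 0.90, 1.56 and 1.38, and the adjacent Cyp2g1 at -0.58; Cyp2a4 and Cyp2a22 were not analysed.

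The sequences before the transcription starts of the 3 Cyp2b genes that were higher in DKO are shown because these genes differed in the same direction. Cyp2b10 is among them by the probe listed as Cyp2b20 only. Whether the 3 probes bind separate transcripts was not tested. Each is the 250 bases before the annotated start from the RefSeq promoter table of build GRCm38.p6, written 5′ to 3′ on the gene's strand. Capitals mark the box CATAAAAG near the start in all 3 and, in Cyp2b19 and Cyp2b23, the 24 bases that are the longest run the pair has in common. Of the pairs only this one was searched. Cyp2b10 and Cyp2b23 have a longer run in common, which is not marked.
Cyp2b19 (chr7:26756892-26757141, plus strand): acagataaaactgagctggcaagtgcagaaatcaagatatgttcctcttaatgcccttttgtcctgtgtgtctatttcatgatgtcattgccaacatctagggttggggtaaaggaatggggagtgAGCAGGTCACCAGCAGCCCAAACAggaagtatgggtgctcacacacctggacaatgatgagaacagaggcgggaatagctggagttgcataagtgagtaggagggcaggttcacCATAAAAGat
Cyp2b10 (chr7:25897408-25897657, plus strand): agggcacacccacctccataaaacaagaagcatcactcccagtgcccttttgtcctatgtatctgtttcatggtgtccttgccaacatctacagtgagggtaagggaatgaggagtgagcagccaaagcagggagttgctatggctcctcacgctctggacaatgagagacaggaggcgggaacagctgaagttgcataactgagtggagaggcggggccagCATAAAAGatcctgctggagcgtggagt
Cyp2b23 (chr7:26686431-26686680, minus strand): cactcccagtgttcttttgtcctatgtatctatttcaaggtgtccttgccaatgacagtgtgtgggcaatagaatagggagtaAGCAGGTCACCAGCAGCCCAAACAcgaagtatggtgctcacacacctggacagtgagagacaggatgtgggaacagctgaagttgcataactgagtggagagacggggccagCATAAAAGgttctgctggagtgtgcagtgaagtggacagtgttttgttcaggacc

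In a global alignment the Cyp2b19 sequence was identical to that of Cyp2b10 at 65.9% of columns, gaps counted (180 of 273). To that of Cyp2b23 it was identical at 56.4% (167 of 296). The sequences of Cyp2b10 and Cyp2b23 were identical at 62.3%. Gap columns lower these values, and the windows are offset against each other at the box described below. The order of these values therefore does not rank the pairs by likeness of their paired bases. The same measure gave 45.6% between Cyp2b19 and Cyp2s1 and 47.7% between Cyp2b19 and Cyp2f2, both genes of the same interval but of other subfamilies. Cyp2b9 and Cyp2b13, which were not detected, were not aligned. Whether the shared sequence is particular to the genes higher in DKO was therefore not tested. The box CATAAAAG, chosen after the sequences were seen, begins 10 bases before the annotated start in Cyp2b19, 28 in Cyp2b10 and 55 in Cyp2b23, and occurs on either strand in 0.958% of 27025 promoter windows of this length.

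Windows were found for 11 of the 14 detected genes, those not found being Cyp17a1, Cyp2d22 and Cyp2g1. Both strands were searched. The hexamers AGGTCA or AGTTCA or GGTTCA or GGGTCA in direct repeat with 3 bases between them, the form bound by VDR, occurred in 0 of 11 windows and in 0.0333% of all windows. The motif TNGCGTG of the aryl hydrocarbon receptor occurred in 0 of 11, and in 4.16% of all. Both are too rare in windows of this length for 0 of 11 to say anything about these genes. Cyp24a1, the classical VDR target, had no window either. The AP-1 motif TGANTCA occurred in 3 of 11, those of Cyp4b1, Cyp3a13 and Cyp4f16, and in 6.87% of all. Of these, Cyp4b1 differed by more than the spread between probes and Cyp3a13 and Cyp4f16 by less.

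Outside subfamily Cyp2b, the highest difference was that of Cyp4b1, which oxidises fatty acids and activates some plant toxins. It had raw signals of 353.3 in DKO and 266.4 in CON and was 1.76-fold higher in DKO (0.82), and 0.56 in the authors' deposited table. The other detected genes of its family were close to equal. Cyp4f13 had 401.5 in DKO and 440.5 in CON, and Cyp4f16 had 196.7 in DKO and 204 in CON. After normalization they differed by 0.02 and 0.03, and by -0.12 and -0.04 with median scaling. Both belong to a subfamily known for hydroxylating leukotrienes and long-chain fatty acids.

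Cyp17a1, the hydroxylase and lyase that leads to androgens in steroid-forming glands, was the only detected gene of the steroid hormone families, of 6 on the array. It had raw signals of 1665.5 in DKO and 1465.5 in CON and differed by 0.39 (1.31-fold). The array holds 1 probe for it, so no other probe checks this value. Cyp11a1, the side chain cleavage enzyme that begins steroid synthesis, had 131.2 in DKO and 134.7 in CON and was detected on neither array.

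Cyp2g1, a P450 best known from olfactory mucosa, had the lowest difference of the 14 genes. Its main probe had raw signals of 2235.1 in DKO and 3688.7 in CON and differed by -0.58, which is 1.5-fold lower in DKO. Its other probe had 1001.5 in DKO and 1448.5 in CON and differed by -0.40, so both probes were lower by more than the spread between probes. Hair follicle markers were lower on the same array: of 8 genes on the array 7 were detected, all 7 lower in DKO (median -1.49) and 5 of them by at least 2-fold, with summed signals of 4700 in DKO and 16120 in CON, and Lef1 was not detected. In RNA of whole epidermis fewer cells of a type and less RNA per cell cannot be told apart, and the part of the follicle in the Cyp2g1 value was not tested. Sebaceous gland markers had summed signals of 8274 in DKO and 8366 in CON, with 6 of 8 detected, 0 beyond 2-fold by the main probe, and Scd3 and Far2 not detected. The 6 had a median of -0.17 (-0.30 with median scaling), 2 higher and 4 lower. Within that sum Mgst1 was higher in DKO, at 0.31, and Cidea lower, at -0.32. A second probe of Mgst1, which is on this list, was far higher in DKO and is given with the conjugation genes.

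Cyp1b1, which oxidises polycyclic hydrocarbons and oestrogens and is induced through the aryl hydrocarbon receptor, had raw signals of 224.2 in DKO and 283.4 in CON and differed by -0.45 (1.36-fold lower in DKO). Cyp1a1 and Cyp1a2, induced by the same receptor, were not detected, with 137.4 and 133 in DKO and 123.3 and at most 128.3 in CON. Of the other genes of that pathway 7 of 9 were detected, with a median of -0.14, 3 higher and 4 lower. Aldh3a1, an aldehyde dehydrogenase, was 2.03-fold lower in DKO, with raw signals of 815.9 in DKO and 1745 in CON. Nqo1, a quinone reductase, differed by -0.79, and Arnt, the receptor's partner, was not above background in DKO and at least 1.59-fold lower there. Ugt1a6a, a glucuronosyltransferase, differed by 0.81, though another probe read -0.33 and a further one, above background in DKO only, was at least 1.35-fold higher there. Ahr itself and Tiparp were not detected.

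The remaining detected genes of families 2 and 3 were close to equal on the arrays. Cyp2s1, a P450 of epithelia, had raw signals of 428 in DKO and 471.4 in CON, and 8.40 (log2) on both arrays after normalization. Cyp2f2, known from the club cells of mouse airways, had 503.8 in DKO and 554 in CON, and Cyp2j9, described from mouse brain, had 181.9 in DKO and 189.3 in CON. They differed by 0.03 and 0.02, and by -0.11 and -0.06 with median scaling. Cyp3a13, a member of the drug-oxidising subfamily Cyp3a, had 320.7 in DKO and 324.4 in CON by its main probe, and its detected probes differed by 0.14 and 0.10. Cyp2d22, above background in CON only, was at least 1.02-fold lower in DKO, which is within the spread between probes.

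The genes that supply P450 enzymes with electrons and heme were mostly detected. Of 10 electron donors and membrane partners on the array 9 were detected, 5 higher and 4 lower, with a median of 0.13. Por, the oxidoreductase that serves the microsomal enzymes, had raw signals of 669.5 in DKO and 661.5 in CON and differed by 0.24, with another probe at 0.18 and one above background in DKO only, at least 1.10-fold higher there. The cytochrome b5 gene Cyb5b differed by -0.53, and the cytochrome b5 reductase genes Cyb5r1 and Cyb5r4 by -0.56 and 0.49. Cyb5r3, a further reductase, was lower in DKO on all 3 detected probes, by -0.41, -0.54 and -0.60. Cyb5r2 was not above background in DKO and at least 1.02-fold lower there, a bound that, like that of the Por probe, is within the spread between probes. Of 8 genes of heme synthesis 6 were detected, with a median of 0.13 and 0 beyond 2-fold. Urod differed by -0.49, Ppox by 0.34, Alas1, the first and regulated enzyme, by 0.32, and Alad by -0.24.

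Receptors that control P450 genes elsewhere were detected in part. Of 14 on the array 8 were, with a median of -0.08, 4 higher and 4 lower, and 0 beyond 2-fold. Nr1i2 and Nr1i3, the nuclear receptors that induce Cyp2b10 and Cyp3a11 in liver, were detected on neither array, with raw signals of 134.5 and 133.8 in DKO and 123.4 and 127.1 in CON. Nr1h2, an oxysterol receptor, differed by 0.51 with its other probe at 0.56, the stress regulator Nfe2l2 by 0.50, and Nr1h3, not above background in DKO, was at least 1.24-fold lower there. Of enzymes that act on P450 products 13 of 13 on the array were detected, with a median of 0.01. Gsto1 and Nat2 each differed by 0.67, and Gsta4, not above background in DKO, was at least 1.38-fold lower there. For Mgst1, a membrane-bound glutathione transferase, the main probe differed by 0.31, and another probe had raw signals of 497.1 in DKO and 115.7 in CON, was above background in DKO only and was at least 10.6-fold higher there. Ephx2, an epoxide hydrolase that opens the fatty acid epoxides made by enzymes such as Cyp2b19, had raw signals of 146.6 in DKO and 170 in CON, was above background in CON only and was at least 1.34-fold lower in DKO. Ephx1, the other epoxide hydrolase on this list, had raw signals of 862.7 in DKO and 960.0 in CON and differed by 0.01.

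Genes of the retinoid pathway stood beside an undetected pair of retinoic acid P450 genes. Cyp26a1 had raw signals of 126.2 in DKO and 140.8 in CON, and Cyp26b1 is given above. Of 14 retinoid genes on the array 5 were detected, with a median of 0.19, 3 higher and 2 lower, and 0 beyond 2-fold. Crabp2, a carrier of retinoic acid, differed by 0.38, Dgat1, which esterifies retinol, by 0.19, and Stra6, a retinol transporter not above background in DKO, was at least 1.11-fold lower there. The Stra6 bound is within the spread between probes. The receptor gene Rarg differed by 0.24, with its other probe at -0.34.

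Markers of other cells of the epidermis had medians closer to 0 than those of the follicle. Detected melanocyte markers (4 of 5 on the array) differed by a median of -0.38, T cell markers (5 of 5) by -0.44, and Langerhans cell markers (4 of 5) by 0.31, each with 0 beyond 2-fold. Macrophage and mast cell markers (3 of 6) had a median of 0.17. By the main probe Csf1r differed by 0.20 and Cd68 by 0.17. Cpa3, of mast cells, was above background in CON only. It measured -0.83 and was 0.08 at its bound, so it gives no direction. The single detected markers of muscle, erythroid cells and hepatocytes, Mylpf, Hba-a1 and Apoa1, differed by 0.44, 0.18 and -0.08. The keratinocyte markers had a median of 0.00. Krt1, Krt10 and Lor, all of the differentiated layers, differed by 0.64, 0.01 and -0.07, and Trp63, the basal transcription factor, by -0.29. The part of these cells in any P450 value was not tested.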

How the data were processed

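Epidermal RNA was measured on 1 Illumina array per group. Per the file headers, the authors' deposited tables hold a raw intensity for every probe, without background subtraction, and its detection p-value. A further deposited table holds intensity that the authors normalized, by a method the sources used here do not name, and the values listed for the series differ from it at 0 of 25697 probes. Sorted by size, its values differ between the arrays by at most 0.9 units, as quantile normalization leaves them. The submitters' processing notes name GenomeStudio 2011.1. Array columns were tied to DKO and CON by the line above the column names.

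Raw intensities were background-corrected with limma 3.58.1 in R 4.3.3 (normexp with parameters from the detection p-values, offset 16), quantile normalized and put on the log2 scale, and tested on simulated data with known changes. Differences are DKO minus CON. A gene is represented by its probe with the highest mean log2 signal and enters when that probe is detected at a p under 0.01 on either array. Where a group was not above background, its level was set to the lowest detected signal of its array (log2 5.38 in DKO, 5.28 in CON) or to the probe's own, whichever is higher, and the fold is written "at least". Counts and medians use the measured differences. Signals of different probes were not set against each other.

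Probes were named through a RefSeq gene table of GRCm38.p6. Of the 92 Cyp probes 61 matched by gene identifier, 26 by accession and 5 by symbol. They carry 68 array symbols for 67 genes, since the array lists Cyp2b10 also as Cyp2b20. Another 7 Cyp genes sit under other array symbols, of which Cyp2b23 was detected. Named genes are all detected Cyp genes, Cyp24a1, Cyp27b1 and Cyp2r1, Vdr and Casr, and up to 4 members with the largest difference of each pathway list. A few others were named after their values were seen, as single probes, neighbours, markers or epoxide hydrolases. The members and lists were chosen with earlier results of these data known. With 1 array per group, DKO and CON were compared without a test. Promoter windows came from the RefSeq promoter table.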

Additional observations from a re-analysis of the deposited data

How the results depend on the processing

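No paired analysis was possible because each group has 1 array and no test was run. Alternatives were median scaling, no background correction, an offset of 50 in normexp, the authors' deposited table, detection at p under 0.05 or on both arrays, no filter on dim probes, the mean over detected probes and dim values at their bound. Under each of them 1 Cyp gene, Cyp2b19, was at least 2-fold higher in DKO and 0 were at least 2-fold lower. With members taken by current RefSeq name, an alternative chosen after seeing the data, 2 were higher, the added gene being Cyp2b23. The number of Cyp genes entered was 13 to 17 under the filters on detection and 67 without a filter, by construction. The median difference of the Cyp genes ran from -0.09 to 0.03. Of the alternative values of the 14 Cyp genes, 121 stayed within the spread between probes (0.30) and 4 did not. The 4 were Cyp27a1 at 0.24 with probes averaged, 1 of them not above background in CON, Cyp2d22 at -0.11 without background correction and -0.03 at its bound, and Cyp4b1 at 0.52 without background correction. Many of the 121 could not move, by construction. A filter on detection leaves a gene's difference as it is, and so does a mean over 1 probe. A bound does the same for a gene detected on both arrays. Cyp2b10 ran from 0.71 to 0.90, Cyp2g1 from -0.69 to -0.49, Cyp1b1 from -0.54 to -0.25 and Cyp17a1 from 0.26 to 0.39. Cyp27a1, Cyp2f2, Cyp2j9, Cyp4f13 and Cyp4f16 took both signs. Among all detected genes the numbers at least 2-fold higher and lower were 89 and 118, against 23 and 27 without background correction, 43 and 58 at the larger offset, 24 and 28 in the authors' deposited table and 57 and 77 with detection on both arrays. Signals near background carry no order.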
